A study of Mus musculus with 17 samples.

Results

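The 6 libraries described here are the H3K9ac chromatin immunoprecipitations of mouse liver, out of 17 libraries in the series. They were chosen by the labelled assay and diet: 3 came from C57BL/6 mice fed a high-fat diet with 60% of calories as fat (HFD A, B and D) and 3 from C57BL/6 mice fed a control diet with 18% of calories as fat (CD A, C and D), each for 10 weeks. The unit of analysis was the H3K9ac region, a stretch of mm10 sequence in which the authors counted reads in all 6 libraries, and all 57499 unique regions were tested. The study's design text gives 4 as the number of mice, and the labels name neither sex, age, feeding state nor the hour at which livers were taken. The labels do not say what the letters stand for, so p-values measure the spread between these libraries only, and it is not stated whether an H3K9ac library and an RNA library with the same letter came from 1 animal. The series' input library and its open-chromatin libraries, all from control livers, were not analysed here.

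H3K9ac is the acetylation of lysine 9 on histone H3, placed by histone acetyltransferases and removed by deacetylases, and it marks active start sites and, at lower levels, active enhancers. A broad region around a start site is usually found at a highly transcribed gene of the tissue, while narrow weak regions away from start sites often lie at distal regulatory elements. In liver the mark at clock genes and their targets is known to rise and fall over the day together with their transcription.

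The results turn on a small set of loci, and the sequences at 6 of them are shown first because their regions moved by more than most. The largest gain lay at the microRNA gene Mir802, and its mature products are given with the seed, bases 2 to 8, in capitals (RefSeq, GRCm38.p6, chr16:93369737-93369758 and chr16:93369775-93369796, plus strand). The stretches below the microRNAs are the 250 bases before the RefSeq start of Ciart (chr3:95882229-95882478, minus strand), Per3 (chr4:151044666-151044915, minus strand), Tef (chr15:81802423-81802672, plus strand), Npas2 (chr1:39194022-39194271, plus strand) and Csad (chr15:102189044-102189293, minus strand). Capitals there mark an E-box, CACGTG, or a D-box, TTATGTAA. Ciart, Per3 and Tef gained the mark and hold such letters, and Npas2 and Csad lost it and hold none of the letters searched. They are examples and not a rule: Gadd45g lost the mark and holds an E-box, and Mfsd2a, Usp2 and Dbp gained it and hold neither an E-box nor a D-box.
miR-802-5p: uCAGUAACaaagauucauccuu
miR-802-3p: aCGGAGAGucuuugucacucag
Ciart: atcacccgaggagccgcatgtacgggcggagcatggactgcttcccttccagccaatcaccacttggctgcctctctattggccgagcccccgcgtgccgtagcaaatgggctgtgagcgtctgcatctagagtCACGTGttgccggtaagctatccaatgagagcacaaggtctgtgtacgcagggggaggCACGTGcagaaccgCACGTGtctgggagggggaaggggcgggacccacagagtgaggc
Per3: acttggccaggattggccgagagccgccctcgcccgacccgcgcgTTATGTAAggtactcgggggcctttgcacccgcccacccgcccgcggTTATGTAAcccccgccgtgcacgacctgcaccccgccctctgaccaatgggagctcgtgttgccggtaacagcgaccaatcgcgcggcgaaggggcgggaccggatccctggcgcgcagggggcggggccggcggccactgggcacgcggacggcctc
Tef: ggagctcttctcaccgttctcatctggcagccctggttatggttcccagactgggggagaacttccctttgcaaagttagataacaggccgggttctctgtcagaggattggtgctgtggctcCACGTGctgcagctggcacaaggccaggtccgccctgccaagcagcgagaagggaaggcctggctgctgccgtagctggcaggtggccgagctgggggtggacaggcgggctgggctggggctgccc
Npas2: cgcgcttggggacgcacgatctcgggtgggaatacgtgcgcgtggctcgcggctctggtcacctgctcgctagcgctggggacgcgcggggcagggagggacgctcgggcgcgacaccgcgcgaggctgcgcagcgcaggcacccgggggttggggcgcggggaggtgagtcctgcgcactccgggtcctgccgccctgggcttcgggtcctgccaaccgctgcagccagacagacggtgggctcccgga
Csad: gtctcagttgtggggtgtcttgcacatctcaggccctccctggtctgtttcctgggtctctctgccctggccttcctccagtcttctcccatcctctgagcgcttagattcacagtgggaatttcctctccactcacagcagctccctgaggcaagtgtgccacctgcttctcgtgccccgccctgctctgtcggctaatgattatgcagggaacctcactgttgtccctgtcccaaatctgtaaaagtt

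The libraries were alike in depth and in profile. Between 9255635 and 12149497 reads were counted per library, so that 3 counts, the limit a count of 0 allows, corresponded to 0.247 to 0.324 CPM, the scaling of counts to library size. Across regions, log2 levels correlated at 0.971 to 0.979 between libraries of the same diet and at 0.966 to 0.973 between libraries of different diets. HFD D stood farthest from its diet: its median absolute log2 distance from the other HFD libraries was 0.140 among the most strongly marked regions, against 0.0906 to 0.112 for the other 5 libraries.

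The high-fat diet was accompanied by a change of H3K9ac at a small share of the liver's regions, and more of them lost the mark than gained it. Of 57499 regions 1372 passed an adjusted p of 0.05, which is 2.39% (edgeR quasi-likelihood test, Benjamini-Hochberg over all regions, 3 libraries per diet). The 480 higher regions were 0.835% of all and lay nearest to 366 genes, and the 892 lower regions were 1.55% of all and lay nearest to 572 genes. Gains were led by Mir802, by the clock outputs Ccrn4l, Ciart and Dbp, by the steroid hydroxylase gene Cyp17a1 and by the lysolipid transporter gene Mfsd2a. Losses were led by the taurine synthesis gene Csad, the clock activator gene Npas2, Selenbp2 and introns of Ppard and Sh3pxd2a. The median size of a called change was 0.70 on the log2 scale for gains and 0.78 for losses, and 108 gains and 242 losses were at least 2-fold. The libraries of the diets did not overlap at 433 of the 480 higher and 822 of the 892 lower regions, compared with 8860 of all regions, or 15.4%. The authors' deposited table called 1382 regions, 495 higher and 887 lower, and 1264 of them were called here in the same direction and 0 in the opposite one.

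How many regions were called rested on single libraries. Without HFD D, 852 regions were higher and 1010 lower, and without HFD B only 188 were higher and 375 lower. Leaving out CD C gave 253 higher and 574 lower, leaving out HFD A gave 251 and 620, and leaving out CD A gave 395 and 573. Of the 217 called regions considered by name, 97 kept their call under every alternative run, and the libraries that decide a call are given below for regions described on their own.

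**Figure D1:**
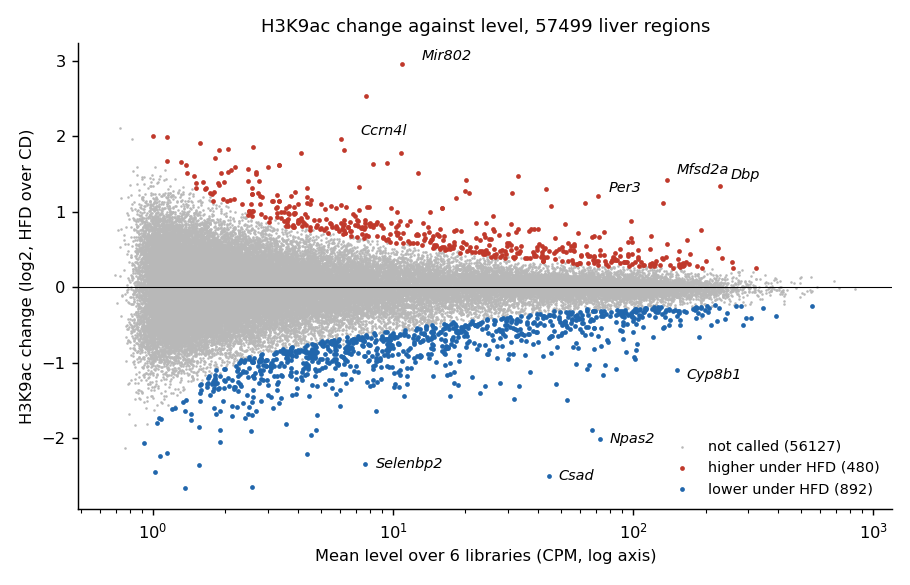
Each point is 1 of 57499 H3K9ac regions, with its mean level over the 6 libraries in CPM on a log axis and its log2 change, HFD over CD, on the vertical axis. Red points are the 480 higher and blue points the 892 lower regions; changes near the size of Mir802 and Csad stand clear of the rest, and the smallest called changes lie at high levels.

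The largest gain was at Mir802, a liver microRNA known for being raised in obese mice. The region just before the gene, chr16:93368282-93369210, held 3.04, 1.92 and 2.57 CPM in CD A, C and D and 22.5, 21.6 and 14.1 CPM in HFD A, B and D. Every HFD library lay far above every CD library, and HFD D was the lowest of the HFD libraries. The log2 change was 2.96 ± 0.20 (SE), a 7.77-fold difference with an adjusted p of 1.7e-17. The next region, chr16:93369393-93370562, spans the start of the gene and holds the sequences of both mature products shown above. It held 2.14, 2.42 and 2.28 CPM in the CD libraries and 16.2, 14.2 and 9.12 CPM in the HFD libraries, a log2 change of 2.53 with an adjusted p of 1.1e-13.

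Other large gains lay inside genes rather than over their start sites. Ccrn4l encodes nocturnin, a clock-driven phosphatase of metabolic tissues. Its intronic region chr3:51225978-51226705 held 3.39, 2.08 and 1.98 CPM in CD A, C and D and 10.6, 11.8 and 6.59 CPM in HFD A, B and D, a log2 change of 1.96 (adjusted p 4.4e-09). The far stronger region over its start site held 158, 156 and 144 CPM under CD and 204, 179 and 182 CPM under HFD, a log2 change of only 0.30 that passed at an adjusted p of 0.0091 and did not pass without HFD A. The diets did not overlap at either region, and the weak intronic region differed by more than the strong promoter region.

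Cyp17a1, a hydroxylase and lyase of steroid synthesis whose liver expression is higher in female mice, gained the mark at 4 of its 10 regions. The intronic region chr19:46670384-46672155 held 2.50, 3.33 and 2.38 CPM under CD and 12.2, 8.17 and 8.79 CPM under HFD, a log2 change of 1.82 (adjusted p 6.8e-09). The promoter-proximal region held 2.32 CPM on average under CD and 5.48 under HFD, a log2 change of 1.25 (adjusted p 0.00031). The remaining called regions rose by 1.17 and 0.53, and each lost the call without CD C, CD D, HFD A or HFD B, the latter also without CD A.

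Rgs16, a regulator of G-protein signalling, and its neighbours on chromosome 1 gained together. The region chr1:153741816-153742415 held 3.48, 3.83 and 7.43 CPM in CD A, C and D and 16.9, 17.6 and 15.3 CPM in HFD A, B and D, a log2 change of 1.77 (adjusted p 4.8e-10). CD D was the highest control library there and still lay below every HFD library. A region in the 3' untranslated part of the gene changed by 1.51, and a run of 5 higher regions among 6 at Rgs8 and C230024C17Rik by a median of 1.31.

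Mfsd2a encodes a transporter of lysophosphatidylcholine that the liver raises on fasting. The widest of its regions, chr4:122954414-122962334, is 7921 bases wide and spans the start site. It held 65.5, 92.7 and 66.8 CPM in CD A, C and D and 228, 214 and 161 CPM in HFD A, B and D. The libraries of the diets were clearly apart, HFD D being the lowest of the HFD libraries. The log2 change was 1.42 ± 0.10 (SE), with an adjusted p of 7.4e-18 that became 0.050 with robust estimation of the spread. Another 3 of its 5 regions rose by 1.62 to 1.64, from means of 1.64 to 4.60 CPM to means of 5.07 to 14.2 CPM.

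Fads2, a desaturase of polyunsaturated fatty acid synthesis, showed a gain confined among its called regions to introns. The region chr19:10095709-10099098 held 13.1, 10.4 and 9.31 CPM under CD and 35.9, 32.9 and 18.8 CPM under HFD, a log2 change of 1.42 (adjusted p 7.3e-10). At its promoter-proximal region the CD libraries A, C and D held 147, 150 and 115 CPM and the HFD libraries A, B and D 144, 122 and 127 CPM. The promoter values of the diets overlapped and the log2 difference was -0.07 (adjusted p 0.85).

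Csad, which makes the taurine precursor hypotaurine, showed the largest loss of any region above the median level of 2.65 CPM. The region chr15:102186472-102189295 spans its start site and held 65.8, 82.0 and 79.0 CPM in CD A, C and D and 13.6, 14.8 and 11.4 CPM in HFD A, B and D. Every HFD library lay far below every CD library. The log2 change was -2.50 ± 0.11 (SE), with an adjusted p of 3.1e-26, the smallest of all regions. An adjacent intronic region fell by 2.20 on the log2 scale and a region 9478 bases downstream of the start by 1.30. The remaining called region, upstream of the gene, changed by -0.75 and lost the call without CD C, CD D, HFD A or HFD B.

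Npas2, the partner of Arntl that can take the place of Clock, has 1 region in these data, and it fell. The region chr1:39192274-39194770 held 128, 109 and 111 CPM under CD and 26.6, 27.9 and 32.7 CPM under HFD, a log2 change of -2.01 ± 0.09 (SE; adjusted p 1.3e-25). The values within each diet were close together and the diets were far apart.

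Several strong losses lay in introns whose nearest annotated start belongs to another gene. The region chr17:28278467-28281868 lies in an intron of Ppard, a nuclear receptor of fatty acid metabolism, although the deposited nearest start is that of Mir5098. It held 135, 98.3 and 84.8 CPM in CD A, C and D and 33.2, 25.2 and 27.6 CPM in HFD A, B and D, a log2 change of -1.89 (adjusted p 7.1e-21). CD A was the highest control library, and the lowest control library was still above every HFD library. In the introns of Sh3pxd2a, a scaffold of actin-rich adhesions, 9 regions fell, with Mir6995 as the deposited nearest start. The widest of them, chr19:47301194-47307340, held 52.1, 41.9 and 48.3 CPM under CD and 18.9, 19.1 and 19.4 CPM under HFD, a log2 change of -1.31 (adjusted p 1.1e-13). In the intron of Asap2, a GTPase-activating protein, the region 56171 bases from the start changed by -1.89, from a mean of 7.53 to 2.06 CPM.

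Losses also lay at genes of the hepatocyte's own metabolism. Cyp8b1 makes the sterol hydroxylase that sets the share of cholic acid in bile, and its region chr9:121911301-121916671 held 214, 198 and 210 CPM in CD A, C and D and 99.5, 95.7 and 95.4 CPM in HFD A, B and D. The log2 change was -1.10 ± 0.07 (SE; adjusted p 1.0e-17), with tight values inside each diet. Ddc, the aromatic amino acid decarboxylase, changed in both directions: an intronic region 1731 bases from the start fell by 2.64 on the log2 scale, from a mean of 4.48 to 0.70 CPM, and another intronic region for which Fignl1 is the nearest start rose by 1.62. Regions at Lrfn3, a synaptic adhesion gene, fell by 1.5, at Bcr by 1.17, and at the manganese exporter gene Slc30a10 by 1.08.

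Selenbp2 and Serpina1e, genes expressed more in male than in female liver, fell as well, with less even controls. At chr3:94682296-94683617, upstream of Selenbp2, CD A, C and D held 19.5, 13.4 and 5.35 CPM and HFD A, B and D 1.96, 2.0 and 3.84 CPM, a log2 change of -2.34 (adjusted p 2.3e-09). CD D was the lowest control library at all 8 called regions of Selenbp2, and the diets overlapped at 6 of them. Without CD A 5 of the 8 calls were lost, and this call was lost with robust estimation of the spread. The region over the start of Serpina1e held 9.91, 6.67 and 5.15 CPM under CD and 2.13, 1.48 and 1.98 CPM under HFD, a log2 change of -1.96 (adjusted p 5.1e-08). Serpina1 genes are near-identical copies of each other, and reads may have been split among them, so this value is uncertain.

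**Figure D2:**
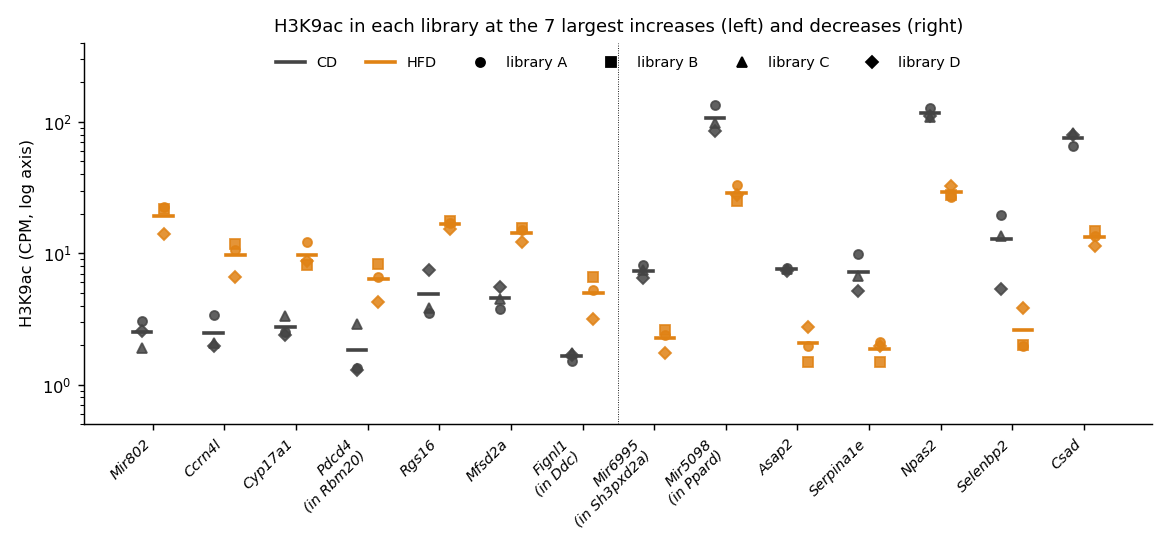
Points give the level of each library in CPM on a log axis, with the mean of each diet as a bar, for the 7 regions with the largest increase (left) and the 7 with the largest decrease (right) that met the rule for named regions. Grey marks CD and orange HFD, and the letter of the library sets the shape; no HFD point overlaps a CD point within a region, by the rule that chose them, and HFD D is the lowest HFD point at 6 of the 7 gains.

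Among the clock genes the activators fell. Arntl, Clock and Npas2 encode the activators that bind E-boxes. The promoter region of Arntl held 140, 133 and 128 CPM in CD A, C and D and 66.4, 66.5 and 75.0 CPM in HFD A, B and D, a log2 change of -0.95 (adjusted p 1.1e-13). Clock fell from a mean of 248 to 175 CPM, by 0.50 on the log2 scale. Nfil3, a repressor acting on the D-box, fell by 0.38 at its promoter region, a call that was lost without CD C.

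Dbp, Tef and Hlf, which encode activators that bind the D-box and are known targets of these factors, were higher. The Dbp region, chr7:45703696-45709205, held 112, 151 and 129 CPM in CD A, C and D and 340, 335 and 314 CPM in HFD A, B and D. It was higher in every HFD library, with a log2 change of 1.33 ± 0.08 (SE; adjusted p 7.1e-21). Tef has called regions at each of 2 start sites, which rose by 1.12 at the site shown above and by 0.68 at the other, and Hlf rose by 0.77 at its promoter region.

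Of the repressor genes of the feedback loop Per1, Per2, Per3, Cry2 and Ciart rose, by unequal amounts. The promoter region of Per3 held 40.9, 46.2 and 42.9 CPM under CD and 102, 105 and 93.3 CPM under HFD, a log2 change of 1.21 (adjusted p 1.3e-16). Per2 rose by 0.47, and Per1 by 0.54 before its start and by 0.41 over it, the latter lost without HFD A. Cry2 rose by 0.73 in an intron and by 0.43 over its start, the latter lost without HFD A. The promoter region of Ciart, another repressor of the loop, held 13.4, 20.7 and 18.8 CPM under CD and 54.1, 55.4 and 36.9 CPM under HFD, a log2 change of 1.47 (adjusted p 2.2e-13). Usp2, a ubiquitin protease and clock output, rose by 1.12 in a region 4981 bases wide, from 91.3, 84.8 and 75.5 CPM to 208, 201 and 137 CPM, and the cell-cycle kinase gene Wee1 by 0.88.

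Not every clock promoter passed. Of the 20 genes on the clock list 16 had a promoter-proximal region, the strongest region with its centre within 1 kb of a start. Of these 5 were higher (Per1, Per3, Tef, Hlf and Ciart), 4 were lower (Arntl, Clock, Npas2 and Nfil3) and 7 did not pass, beside 162 higher (1.26%) and 197 lower (1.53%) of 12892 genes with such a region. Among those that did not pass, the promoter change of Nr1d2 was 0.21 and that of Bhlhe41 0.19 on the log2 scale, and Cry1, Bhlhe40 and Rora lay within 0.01 of 0. The promoter-proximal region of Usp2 stood at -0.01 although its wide region, whose centre lies 1074 bases from the start, rose. The hour of collection is not in the labels, and its part in these values was not tested.

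Wide regions were called more often than narrow ones. The share called was 1.21% of the 40769 regions under 1 kb, 3.83% of the 11788 from 1 to 2 kb, 7.65% of the 4172 from 2 to 4 kb and 14.2% of the 770 regions of 4 kb or more. Width and level go together, with a median of 1.83 CPM in the narrowest class and 124 CPM in the widest, and the count behind a region sets how small a change can be called: the median standard error was 0.32 under 1 kb and 0.08 at 4 kb or more. The shares were therefore read within 1 level class. In the highest of 4 equal level classes they were 2.38%, 3.68%, 7.71% and 14.2% from the narrowest to the widest class, and in the tenth of regions with the highest level they were 2.0%, 2.23%, 5.83% and 13.8%. The standard errors there were alike, with medians between 0.08 and 0.09, and the share of regions with a change of at least 1.5-fold was 0.28%, 0.91% and 2.70% in the classes from 1 kb upward. The narrowest class held only 100 regions of that level, 2 of them called. These shares describe the regions and carry no test, since regions are not replicates.

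With all levels pooled, called regions under 1 kb had a median absolute log2 change of 1.01 and those of 4 kb or more 0.41, where the median standard errors, which set the size a change needs to pass, were 0.32 and 0.08. At matched level the order was weaker or absent: in the third highest of 10 equal level classes the medians were 0.78, 0.77 and 0.69 for regions under 1 kb, of 1 to 2 kb and of 2 to 4 kb, and in the second highest the medians were 0.48, 0.51, 0.56 and 0.54 from the narrowest to the widest class. Among the 109 called wide regions 44 were higher and 65 lower, and only 7 were changed at least 2-fold. Dbp, Mfsd2a, Usp2 and Per2 belong to the wide gains, and Cyp8b1, the Sh3pxd2a intron and Xirp1, whose region of 5480 bases fell by 1.04, to the wide losses.

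Level had a similar pattern. From the lowest to the highest of the 4 level classes 22, 127, 475 and 748 regions were called, or 0.153%, 0.883%, 3.30% and 5.20%. The called regions of the lowest class had a median absolute change of 1.71 on the log2 scale, against 0.52 in the highest class. Changes of low regions as small as those called in the highest class were not detectable at this depth.

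**Figure D3:**
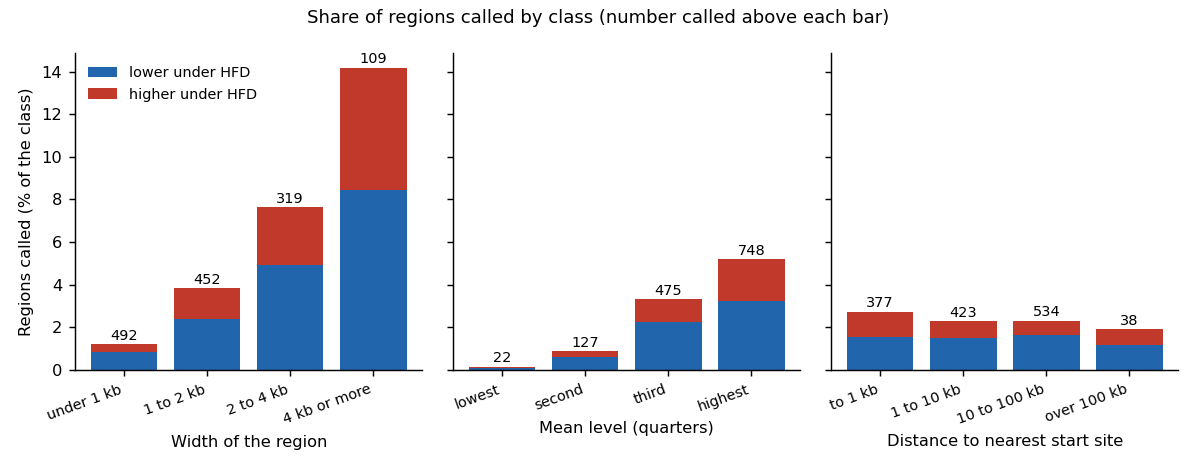
Bars give the percentage of regions called in each class of width, of mean level and of distance to the nearest start site, with lower regions in blue, higher regions in red and the number called above each bar. The share climbs from 1.21% to 14.2% with width and from 0.153% to 5.20% with level, and with all levels pooled it lies between 1.92% and 2.73% over distance.

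With all levels pooled, the share of regions called was similar at every distance from a start site. It was 2.73% of 13830 regions within 1 kb, 2.28% from 1 to 10 kb, 2.31% from 10 to 100 kb and 1.92% beyond 100 kb. Regions near start sites are stronger, and at matched level or width the share was mostly higher away from them. In the highest of 4 equal level classes it was 3.34% within 1 kb, 8.98% from 1 to 10 kb, 10.3% from 10 to 100 kb and 5.95% beyond, although the median standard error there was 0.09 within 1 kb and 0.12 to 0.14 farther away. Among regions of 2 to 4 kb it was 5.33%, 10.1% and 12.9% up to 100 kb, among those of 1 to 2 kb 2.47%, 5.13% and 6.01%, and among those of 4 kb or more 13%, 12.7% and 21.6%. The direction of the calls also differed: 166 regions were higher and 211 lower within 1 kb, 146 and 277 from 1 to 10 kb, and 153 and 381 from 10 to 100 kb. The lower share was thus 56.0% near start sites and 71.3% at 10 to 100 kb. This difference rested on HFD D, without which the lower share was 59.6% within 1 kb and 54.9% at 10 to 100 kb. Distal losses of large size included the region 147736 bases from Tssc1, chr12:28898524-28900603, which held 33.3, 32.4 and 34.3 CPM under CD and 13.3, 11.6 and 13.1 CPM under HFD, and 1 near Dkk3, 29089 bases before its start, which fell by 1.30. Distal gains included C230024C17Rik, which rose by 1.18 at 39960 bases, and a region 228430 bases from Sall1, which rose by 1.06.

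By the authors' gene part, introns held 770 of the called regions, 2.51% of 30639, and 5' untranslated parts held 79, 2.30% of 3434. The regions in none of the named parts, mostly intergenic, had 64 higher and 195 lower calls, together 2.49% of 10398. The 3' untranslated parts had 6 and 21, together 1.88% of 1440. Among all regions 2.39% were called, and 65.0% of those calls were lower. Within 1 kb and in the 5' untranslated parts the called changes were small, with medians of 0.47 and 0.48, while in the introns and in none of the parts they were 0.75 and 0.88. Calls were found on every chromosome except Y, where 14 regions were tested. On chromosome 9, 57 of 71 called regions were lower (80.3%), and on chromosome 16, which carries Mir802, 25 of 51 (49.0%). These calls were 2.23% of 3190 and 2.95% of 1728 regions. The lower share also varied over the other chromosomes with calls, from 33.3% of 6 on X to 78.0% of 50 on chromosome 13.

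The spread of the mark over the classes as a whole was close in the diets. Regions within 1 kb of a start held 71.3% ± 0.66 of the reads under CD and 71.7% ± 1.12 under HFD (SD, n = 3), and regions of 4 kb or more 11.5% ± 0.32 and 11.4% ± 0.31. In an exact two-sided permutation test over the 6 libraries the smallest p of the 18 classes was 0.2, for the 3' untranslated parts, and all adjusted values were 1. With 3 libraries against 3 the test cannot give less than 0.1, so no class could have passed. The median log2 change of each width, level and distance class lay between -0.024 and 0.014.

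Many called regions lay near each other. When called regions of 1 direction within 20 kb were joined, 196 of the 480 higher regions fell into 73 runs of 2 or more. Of the 892 lower regions 481 fell into 164 runs. Regions lie close together whatever their call, such as 24 over 72058 bases at Ergic1. How many would join regardless of call was not computed, so these counts have no share over all regions beside them. The gained run with the most called regions held 8 higher regions among 13 at Pptc7, a mitochondrial phosphatase gene, and its neighbour Rad9b, over 36802 bases. Summed over these 13 regions the level was 200, 174 and 162 CPM in CD A, C and D and 284, 273 and 231 CPM in HFD A, B and D, and all 13 changes were positive. Other gained runs lay at Mfsd2a with 6 of 7 regions, at Efhd2 with 6 of 7, at Por, the reductase that supplies electrons to cytochromes P450, with 5 of 10, and at Fkbp5, a co-chaperone of the glucocorticoid receptor, with 5 of 11. The summed level of the Fkbp5 run was 208, 204 and 149 CPM under CD and 327, 315 and 239 CPM under HFD, and CD D was lowest among the controls at Fkbp5 and at Por.

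The lost runs were more numerous, as were the lower calls. At Ergic1, which encodes a protein of the early secretory pathway, 9 of 24 regions over 72058 bases fell and 23 of 24 changes were negative, with a median of only -0.53 among the called ones. The summed level was 388, 323 and 366 CPM under CD and 262, 229 and 254 CPM under HFD. At Sh3pxd2a 9 of 22 regions over 60595 bases fell, with sums of 230, 203 and 234 CPM and of 123, 117 and 121 CPM. Runs at Fam222a with 6 of 9 regions, at the epoxide hydrolase gene Ephx1 with 6 of 14 and at Ppard with 5 of 6 showed the same separation of the diets. The Selenbp2 run was different in its controls, with sums of 192, 141 and 69.2 CPM in CD A, C and D and of 58.3, 60.6 and 59.4 CPM under HFD. CD D was nearer to the HFD libraries than to the other controls there.

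**Figure D4:**
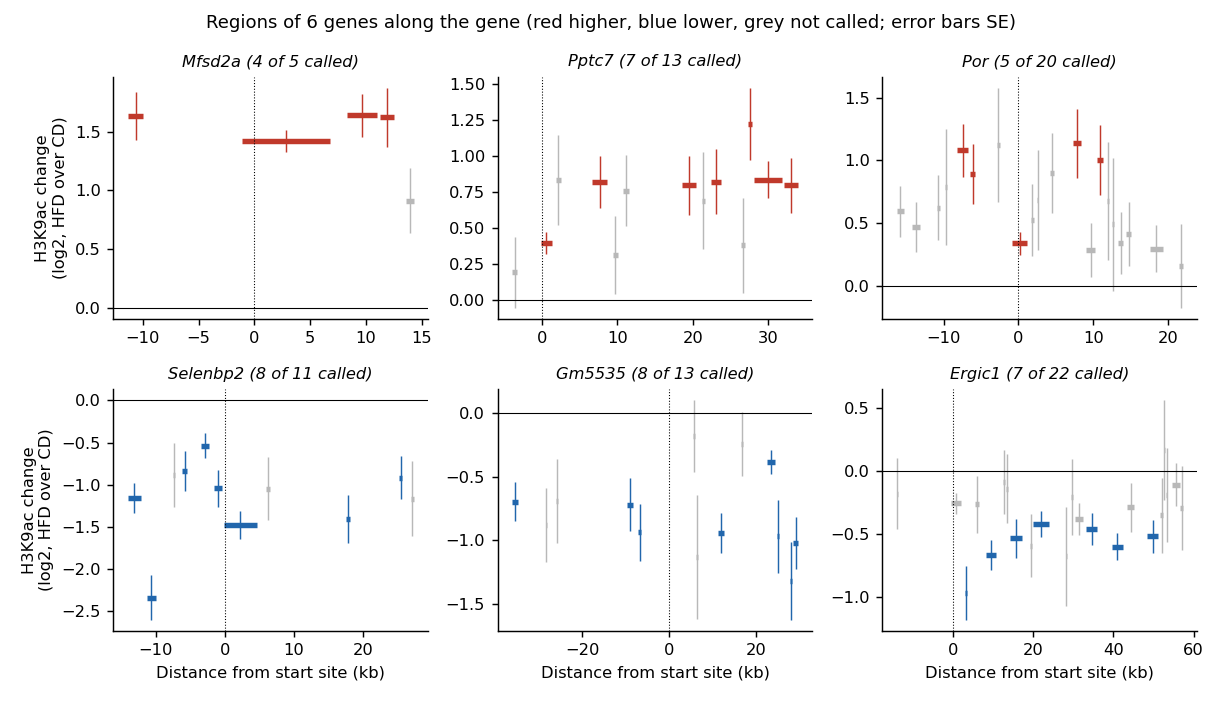
Each horizontal bar is 1 region of the named gene, drawn at its distance from the start site in kb and as wide as the region, at the height of its log2 change, HFD over CD, with the standard error. Red regions are higher, blue regions lower and grey regions not called; at Mfsd2a, Pptc7 and Por all regions lie above 0, at Selenbp2 and Gm5535 all lie below it, and at Ergic1 1 of 22 lies above.

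Among genes with many called regions, most of the other regions pointed the same way. At Irf2bp2, a transcriptional corepressor gene, 9 of 36 regions fell and 30 of 36 changes were negative. At Gadd45g, a stress-response gene, 7 of 22 fell. At Por 5 of 20 regions rose and all 20 changes were positive, and at Efhd2 5 of 13 rose with all 13 positive. The summed level of the 20 Por regions overlapped between diets. It was 149, 147 and 104 CPM in CD A, C and D and 196, 203 and 143 CPM in HFD A, B and D. Many of these single calls were weak: of the 5 calls at Por 4 were lost without CD D, HFD A or HFD B, and without HFD B 5 of 7 were lost at Gadd45g, 6 of 9 at Irf2bp2, 3 of 5 at Efhd2, 4 of 7 at Ergic1, 3 of 9 at Sh3pxd2a and 3 of 7 at Pptc7. The 4 calls at Ergic1 were also lost without CD A, without CD C 5 calls were lost at Gadd45g and 5 at Irf2bp2, and at Pptc7 3 of 7 were lost without CD C or CD D.

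Where a promoter was called, most other regions of the gene had a change of the same sign. The 131 genes with a higher promoter-proximal region had 666 other regions, of which 522, or 78.4%, had a positive change, with a median of 0.31. The 169 genes with a lower promoter-proximal region had 1056 other regions, of which 847, or 80.2%, had a negative change, with a median of -0.37. Where the promoter was not called, 48.7% of 31411 other regions had a positive change. Seen from the other side, most genes with a call at another region had no call at the promoter-proximal one. A region that spans a start but has its centre over 1 kb from it counts as elsewhere here, as at Usp2. Among all regions 505 are of this kind, so some of the genes below can have a called region over their start. Of 165 genes with a higher region elsewhere 37 also had a higher promoter region, 127 had a promoter region that did not pass and 1 had the opposite call, and of 299 genes with a lower region elsewhere the counts were 61, 237 and 1. Ppara, the fasting receptor of the liver, was such a gene: 4 of its intronic regions rose by 0.41 to 1.30, while its promoter region held 214, 232 and 192 CPM under CD and 232, 220 and 210 CPM under HFD with a log2 difference of 0.05 (adjusted p 0.88). Only the call at 0.55 held in all leave-outs; the others were lost without HFD B, at 1.08 also without CD C, at 1.30 also without CD D or HFD A, and at 0.41 without any library but HFD D.

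A few sterol synthesis genes were lower. Of 24 genes on the cholesterol list 18 had a promoter-proximal region, and 5 were lower, 0 higher and 13 did not pass, beside 1.53% lower among all such regions, with a median of -0.14 beside 0.01 over all promoter-proximal regions. Sqle, the squalene epoxidase, held 59.3, 59.8 and 44.7 CPM under CD and 27.5, 26.6 and 33.8 CPM under HFD, a log2 change of -0.91 (adjusted p 1.0e-08). Cyp51, the lanosterol demethylase, fell by 0.49. Pmvk at -0.41, Tm7sf2 at -0.32 and Srebf2 at -0.28 passed by little, and each lost its call without CD A, CD C or HFD B, Pmvk also without HFD D, Tm7sf2 without HFD A and Srebf2 without CD D or HFD A. Fdft1, the squalene synthase, carried calls in both directions at introns, 1 up by 1.07 and 1 down by 0.99, the latter lost without CD A or HFD B.

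Some genes of foreign-compound metabolism were higher. At 11 promoter-proximal regions of 22 listed genes 5 were higher, 1 was lower and 5 did not pass. Among all genes with such a region 1.26% were higher and 1.53% lower. Over all 87 regions of the listed genes 13 were higher and 6 lower, beside 0.835% higher and 1.55% lower among all regions. Sult1a1, a phenol sulfotransferase, rose by 0.77, from a mean of 29.7 to 50.8 CPM, and Cyp2a5 by 1.09, though reads of Cyp2a copies may have been split. The nuclear receptor gene Nr1i3 at 0.44, Por at 0.34 and Ugt1a1, which conjugates bilirubin, at 0.44 passed by less, and each lost its call without HFD A or HFD B, Nr1i3 also without CD C or CD D, Por without CD D and Ugt1a1 without CD C. Ephx1 went the other way, from 107, 97.7 and 133 CPM in CD A, C and D to 72.6, 61.3 and 75.5 CPM in HFD A, B and D, a log2 change of -0.69 (adjusted p 1.6e-07).

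Calls at genes known for sex-biased expression in liver rested on few genes. Promoter-proximal regions were lower at 3 of 8 male-biased genes and higher at 1 of 2 female-biased genes. Among all genes with such a region 1.53% were lower and 1.26% higher. Of 72 regions of 18 male-biased genes 18 were lower and 0 higher, beside 1.55% lower among all regions, with a median log2 change of -0.58, and 8 of the 18 belonged to Selenbp2, where CD D was low. Elovl3, a fatty acid elongase, fell by 0.82 in a region that held 80.1, 97.0 and 84.5 CPM under CD and 47.3, 51.3 and 50.1 CPM under HFD. Cyp2d9 fell at 4 of its 7 regions, by 1.15 and 1.11 at the largest, among near-identical copies to which reads may have been assigned. Its call 650 bases from the start, at -0.38, was lost under 7 alternatives, and its call at 13931 bases under 4. Of 22 regions of 18 female-biased genes 6 were higher and 0 lower, beside 0.835% higher among all regions, 4 of them at Cyp17a1, 1 at Acot3 and 1 at Cyp2b9. The region nearest to Cyp2b9 lies 53311 bases from its start and held 0.79 CPM under CD and 2.17 CPM under HFD, a call lost without CD A, CD C, HFD A or HFD B.

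The hepcidin genes, which control iron uptake, parted. Hamp fell by 0.79, from 20.8, 22.4 and 20.6 CPM in CD A, C and D to 14.0, 15.5 and 6.92 CPM in HFD A, B and D, and Hamp2 rose by 1.81, from 1.16, 0.92 and 0.40 CPM to 4.00, 2.52 and 2.31 CPM. Neither passed with DESeq2. The 2 genes are near-identical copies, and reads may have been assigned to the wrong one.

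In other groups few promoters passed, where 1.26% were higher and 1.53% lower among all genes with a promoter-proximal region. Among 23 genes of fatty acid oxidation and ketogenesis with a promoter-proximal region 2 were higher, Hadh by 0.49 and the hormone gene Fgf21 by 0.95, and 0 were lower. Among 13 bile acid and sterol transport genes the exporter gene Abcg8 was higher by 0.60. That region of 4008 bases also holds the RefSeq promoter window of Abcg5. Of 14 glucose and insulin genes Igfbp1 was lower by 0.47, of 13 lipid droplet and uptake genes Fabp5 was lower by 0.50, lost without CD A, CD C or HFD B, of 12 immediate early genes Myc was lower by 0.50 with overlapping diets, and of 17 interferon genes Gbp3 and Tap1 were higher by 0.76 and 0.31, each lost without CD C or HFD D, Gbp3 also without HFD B and Tap1 without CD D. No promoter-proximal region passed among 9 lipogenesis, 16 endoplasmic reticulum stress, 9 growth hormone and STAT5 and 20 histone acetylation genes. Other regions of these lists did pass. Of 203 regions of the lipogenesis list 5 were higher and 2 lower. For endoplasmic reticulum stress the counts were 3 and 1 of 78, and for growth hormone and STAT5 1 and 3 of 113. The acetyltransferases, deacetylases and sirtuins on the histone acetylation list had 115 regions in all, and none of them was called in either direction. Among all regions 2.39% were called, and with so few regions a count of 0 lies near that share.

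Few regions of cell-type markers were called, and in whole liver fewer cells of a type and less mark per cell cannot be told apart. None of the 132 regions of hepatocyte markers, the 76 of sinusoidal endothelium or the 29 of Kupffer cells was called. Among all regions 2.39% were called, so few calls would fall on lists of this size. Among 9 stellate and matrix markers with a promoter-proximal region Reln was higher by 0.51, a call lost without CD A, and the sum over the 9 was 95.9 to 105 CPM under CD and 116 to 133 CPM under HFD. Among 5 cholangiocyte markers Sox9 was lower by 0.58, and the sum over the 5 was 295 to 334 CPM under CD and 250 to 276 CPM under HFD. Among 4 lymphocyte markers 0 were called, with a median log2 change of 0.48, and the sum over the 4 was 6.14 to 7.95 CPM under CD and 7.99 to 12.6 CPM under HFD. The sums of these 3 lists did not overlap between diets, those of the other 4 cell-type lists did, and their part in the other results was not tested.

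The RNA libraries of the same diets, 4 per diet, gave a separate readout of the nearest genes. The running numbers in the RNA column headings do not overlap between diets, and what they stand for is not stated, so their part and that of the diet cannot be told apart. Of 12334 genes tested 897 passed, 7.27%, with 448 higher (3.63%) and 449 lower (3.64%; edgeR quasi-likelihood test). Of 10101 genes with a promoter-proximal region and RNA values, 147 had a higher promoter region, of which 61 had higher RNA, 85 RNA that did not pass and 1 lower RNA. Of 183 genes with a lower promoter region 96 had lower RNA, 87 RNA that did not pass and 0 higher RNA. The gene with opposite calls was Ces1d, a carboxylesterase of triglyceride breakdown, with a promoter change of 0.86 and an RNA change of -1.46. By distance, RNA was lower for 51.0% of genes with a lower region within 1 kb, 32.4% at 1 to 10 kb and 26.1% at 10 to 100 kb, while for higher regions RNA was higher for 40.9%, 45.7% and 25.5%.

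For most of the strongest gains the log2 change of RNA was larger than that of the mark, with Fads2 an exception among the genes given here. Dbp RNA was 0.90, 0.61, 0.89 and 1.61 CPM in CD A to D and 143, 118, 57.0 and 62.2 CPM in HFD A to D, a log2 change of 6.57 (adjusted p 2.5e-05). Mfsd2a RNA was 4.94, 6.79, 6.70 and 8.43 CPM under CD and 208, 214, 57.5 and 77.1 CPM under HFD, a log2 change of 4.37 (adjusted p 0.00035). HFD C and D were lower than HFD A and B at each of these genes. Per3 changed by 4.04, Ciart by 4.70, Usp2 by 3.42, Ccrn4l by 3.40, Cyp17a1 by 3.34, Tef by 2.34 and Fads2 by 1.27. Rgs16 changed by 4.28 with an adjusted p of 0.016, which was lost without CD A (0.056) or CD C (0.056).

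Among the losses, Csad RNA was 542, 676, 525 and 698 CPM in CD A to D and 41.7, 31.0, 40.7 and 26.95 CPM in HFD A to D, a log2 change of -4.12 (adjusted p 3.5e-06). Npas2 changed by -4.08, Arntl by -2.56, Fam222a by -2.44, Ppard by -2.38, Asap2 by -2.15, Serpina1e by -1.93, Sqle by -1.91, Lrfn3 by -1.57, Cyp8b1 by -1.5 and Ddc by -1.5. Other genes with called losses of the mark, some of them small or away from the start site, had RNA that did not pass. Bcr RNA stood at -0.12 (adjusted p 0.65), Ergic1 at -0.22 (0.14), Sh3pxd2a at -0.48 (0.15), Irf2bp2 at -0.57 (0.13), Slc30a10 at -0.59 (0.082) and Clock at -0.61 (0.20). Among the gains Fgf21 stood at -0.47 (0.57) and Por at 0.56 (0.26). RNA of Pptc7, higher by 0.53, passed at 0.021 and was lost without CD A, CD C, CD D or HFD B.

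**Figure D5:**
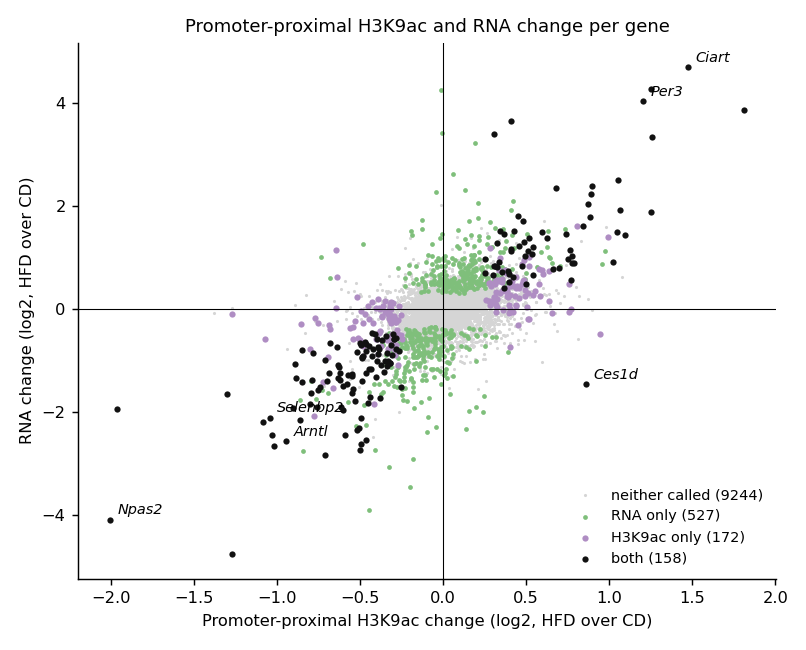
Each point is 1 of 10101 genes with a promoter-proximal region and RNA values, with the log2 change of H3K9ac, HFD over CD, on the horizontal axis and that of RNA on the vertical axis. Black points are called in both and lie in the upper right and lower left with 1 exception, Ces1d; purple points are called for H3K9ac only, green points for RNA only and grey points for neither.

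The letters of the promoters were counted last, as a description. RefSeq windows from 250 bases before to 50 bases after a start (GRCm38.p6) lay whole inside 8771 regions, of which 120 were higher, 182 lower and 8469 not called. The E-box CACGTG was found in 20 of the 120 higher windows, 16.7%, in 16 of the 182 lower windows, 8.79%, and in 10.1% of the windows not called, while 7.15% of all 32817 windows hold it. The windows of Ciart hold it at -116, -58 and -44 and those of Tef at -127 and -138, counted from the first base of the match back from the start. The D-box, TTATGTAA or TTACGTAA, was found in 3 higher windows (2.50%), in 1 lower window (0.55%) and in 0.43% of those not called, against 1.05% of all windows, and Per3 holds it at -205 and -158. The ROR and REV-ERB element, TAGGTCA or TGGGTCA, was found in 7.14% of lower, 5.0% of higher and 4.86% of other windows, against 6.46% of all, and Nfil3 holds it at -12. AGGTCANAG, part of a PPAR element, can overlap the letters of the ROR element. The shares for lower, higher, not called and all windows were 2.75%, 0.83%, 1.16% and 2.01% for AGGTCANAG. In the same order the shares were 4.40%, 6.67%, 6.23% and 8.29% for the STAT letters TTCNNNGAA. For the CRE, TGACGTCA, they were 4.40%, 1.67%, 3.24% and 1.79%. All were searched on both strands. Windows with at most 5 CpG, such as that of Csad, made up 12.5% of higher and 16.5% of lower windows, 5.10% of the windows not called and 43.6% of all windows.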

How the data were processed

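Liver H3K9ac was measured by chromatin immunoprecipitation and sequencing in 3 libraries per diet, and RNA in 4 per diet. The authors deposited raw read counts per region and per gene, with log2 changes and adjusted p-values of their own, which were used only for the overlap with the calls made here. Per the submitters' processing notes the build is mm 10; aligner, peak caller, counting program and original test: not given in the sources used here. Width, nearest gene and distance are the authors' columns; in the deposited table the distance is that of a region's centre from a start, checked to within 2 bases. Regions listed more than once (71) were counted once, and 4999 RNA lines without a gene name were left out.

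Libraries were scaled by TMM and tested with edgeR 4.0.16 (R 4.3.3; filterByExpr, quasi-likelihood, diet only) over all 57499 regions, with Benjamini-Hochberg adjustment and a threshold of 0.05. The filter removed 0 regions. Levels are CPM after that scaling, each log2 change compares HFD with CD and has a standard error (SE), and ± is the SD unless it is named as SE. Intervals of counting error and the limit of 3 counts do not cover other sources of error. The number of counts per library, 9255635 to 12149497, set the precision: the median region held 29 counts. The RNA libraries held 31802893 to 37596560 counts. Regions were named by rule: the 12 largest increases and the 12 largest decreases of called regions at or above the median level whose diets did not overlap, the 2 smallest p in each direction of each class, the 6 genes with most called regions in each direction, and members of 17 pathway and 7 cell-type lists. The members, lists, classes and rule were chosen with earlier results of these data known. Alternatives were DESeq2 1.42.0, library totals, RLE factors, loess offsets, a mean count of at least 50, no filter, robust estimation, the letter as a replicate block, no duplicated lines and each library left out. The letters A and D occur in both diets. Deviations of same-letter libraries correlated at 0.090 and 0.081, the highest values of all pairs across diets. Pairs with different letters lay between -0.118 and 0.046. The fit was not paired because the labels do not say what a letter marks, and the replicate block was run as an alternative. A few items are not reported here.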

Additional observations from a re-analysis of the deposited data

Results flagged for a closer look

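In 3 of 88 groups of 4 RNA libraries, 1 per gene and diet, a library stood far from the other 3 of its diet by Dixon's test at the 95% level; chance flags about 1 in 20 groups. Rgs16, whose H3K9ac rose, had 14.8 CPM of RNA in CD D and 0.35, 2.20 and 2.27 CPM in the other CD libraries. The H3K9ac library labelled CD D was also the highest control at Rgs16, with 7.43 CPM against 3.48 and 3.83. Pptc7 RNA was 18.3 CPM in CD B against 15.5, 15.8 and 15.9 CPM, and Usp2 RNA was 4.05 CPM in CD B against 2.34, 2.37 and 2.42 CPM. No group of H3K9ac libraries was large enough for this test.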

How the results depend on the processing

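The count of called regions depended on the tool and on single libraries. DESeq2 called 798 regions (293 higher, 505 lower), and a mean count of at least 50 left 21012 regions and 701 calls (221 and 480). Leaving out 1 library at a time gave 563 to 1862 calls, 188 to 852 of them higher and 375 to 1010 lower. The replicate block, which pairs libraries of the same letter, gave 1277 (483 and 794), and the other settings 1261 to 1509. The ratio of the share called at 4 kb or more to that under 1 kb was 11.7, and 18.4 with DESeq2, 4.33 at a mean count of at least 50, 21.8 with the replicate block, 20.4 with quartiles of width and 13.1 to 20 in the leave-outs. The ratio of the highest to the second lowest of the 4 level classes was 5.89, and 27.4 with DESeq2, 9.98 with the replicate block and 6.56 to 9.18 in the leave-outs.

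The lower share of calls within 1 kb was 42.1% with the replicate block. The differences in read share, HFD minus CD in percentage points, changed sign without 1 library: at 4 kb or more from -0.070 to 0.086 without CD A and 0.094 without HFD D (range -0.232 to 0.094), within 1 kb from 0.36 to -0.022 without CD A and -0.285 without HFD D (up to 0.726), and at 10 to 100 kb from -0.28 to 0.0028 without HFD D (down to -0.459). The smallest exact permutation p over all 18 classes was 0.1 to 0.3 across settings. The Fads2 promoter difference was 0.052 with the replicate block and the Ppara promoter difference -0.0072 without CD D, with leave-outs up to 0.118. The cause of these shifts was not tested. Of 217 called regions considered by name, 71 lost the call with DESeq2 and 53 with the replicate block. In the lowest level class all 22 called changes were at least 2-fold, with a median absolute log2 change of 1.71. The median standard error there was 0.43, so changes near 2-fold were also unlikely to pass at this depth.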

Other observations

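A few regions outside the groups of the report stood out by size. Sik1, a salt-inducible kinase gene, fell by 1.57 on the log2 scale at a region that held 8.49, 9.50 and 9.01 CPM in CD A, C and D and 2.90, 3.56 and 2.53 CPM in HFD A, B and D, while its RNA change of -0.89 did not pass (adjusted p 0.14). Jsrp1 fell by 1.64, the noncoding genes 4930597G03Rik and Platr5 by 1.6 and 1.54, and the pseudogene Serpina4-ps1 by 1.5, a call lost without CD A.

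Among runs of at least 5 lower regions, the summed levels of the diets overlapped at Serpina11 and Fam25c, where CD D was the lowest control. The summed level at Serpina11 was 125, 109 and 40.4 CPM in CD A, C and D and 54.8, 56.9 and 39.7 CPM in HFD A, B and D. At Fam25c it was 163, 131 and 85.9 CPM and 82.4, 89.5 and 61.2 CPM.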
